A study of Mus musculus with 4 samples.

Results

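Cyclin D1 (Ccnd1), cyclin B2 (Ccnb2), cyclin G2 (Ccng2) and the kinase inhibitor p15 (Cdkn2b) are 4 of the 4878 genes in a table of bulk MARS-seq counts from mouse embryonic fibroblasts. They were chosen by name after their measured values in the comparison described here were known, so those values are given as a description and without a test. The cells, grown from embryos and used between passages 5 and 8, received, with Lipofectamine RNAiMAX, an siRNA: 2 libraries had a negative control and 2 an siRNA that targets eIF1A. The treatment label marks the eIF1A siRNA with X+18 and does not explain the mark. Strain, genotype and the time after transfection are not in the labels. Whether replicates were separate cultures is not in the labels either. The p-values below therefore measure only how far these samples spread, and that spread may be technical. Eif1a and Eif1ax, the genes for the targeted factor, were not analysed here, so the knockdown itself was not checked. The groups are named by their siRNA.

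Cyclins are the activating subunits of cyclin-dependent kinases, and their amounts change as a cell passes through its division cycle. D-type cyclins bind CDK4 and CDK6 in G1, when growth factors are present, and the kinases phosphorylate the retinoblastoma protein and free E2F factors to switch on genes of S phase. Cyclin B2, with cyclin B1, activates CDK1 at mitosis. Cyclin G2 is unlike these: it is associated with cell cycle arrest, binds subunits of the phosphatase PP2A and is a known target of FoxO factors. p15 is an INK4 protein that binds CDK4 and CDK6 and keeps cyclin D away from them. Its gene is known for its induction by TGF-beta and for its silencing, with the neighbouring Cdkn2a, by Polycomb complexes. eIF1A helps the small ribosomal subunit scan an mRNA for its start codon, and the title of the series places these libraries in work on eIF1A and cell cycle genes.

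Each library held 2152331 to 2595625 recovered reads. Replicates of both groups differed by more than sampling noise (chi-square divided by its degrees of freedom, 16.5 in controls and 13.7 with eIF1A siRNA). Of 4605 genes tested, 15.9% were called higher and 21.6% lower after eIF1A siRNA (limma, Benjamini-Hochberg adjusted p under 0.05), and in 67.8% the 2 groups of libraries did not overlap. Differences between the groups were thus common over the table, and a member's place in either set is read against these shares. Fold changes and log2 differences are on the log2(normalised count + 1) scale. The median log2 difference of all tested genes was −0.01, and it moved to 0.34 when every library was set to the same total, because the normalised totals of the eIF1A siRNA libraries are lower. Of 24 fibroblast markers 12 were in the table, among them Vim, Sparc, Fn1 and Col5a1. The other 12, among them Col1a1, Pdgfra and Thy1, were not analysed here. The summed level of the 12 in the table was 32068 and 28560 normalised counts in controls and 16418 and 17984 after eIF1A siRNA. Of these 12 markers 7 were lower (58.3%, against 21.6% of all tested genes) and 0 higher, with a median log2 difference of −0.75. At equal library totals the median was −0.40 and 3 were lower. With quantile normalisation, or in limma without its mean-variance trend, 3 were lower too. At an unadjusted p under 0.05, and in edgeR and DESeq2 alike, the number higher was also 0. The number lower was 3 without control replicate 1 and 4 without either eIF1A siRNA replicate. S100a4, a calcium-binding protein, was 6.64-fold lower and Col5a1, a collagen V chain, 2.57-fold lower. Of 16 macrophage and leukocyte markers only Cd74 was in the table, at 123 and 71.4 in controls and 29.1 and 24.5 after eIF1A siRNA, and of 12 neural markers only Nes and Map2 were. The endothelial, epithelial and skeletal muscle markers were not analysed here. The part of these markers in the results below was not tested.

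The gene for cyclin D1 (ENSMUSG00000070348) lies on mm10 chromosome 7 from 144929931 to 144939925 on the minus strand, with 5 exons in its principal GENCODE transcript of 3740 bases. Control libraries 1 and 2 had 28.5 and 45.4 normalised counts of Ccnd1, from 29 and 56 reads, and eIF1A siRNA libraries 1 and 2 had 265 and 253, from 328 and 373 reads. Both eIF1A siRNA libraries lay far above both controls. The group means were 37.0 ± 12.0 and 259 ± 8.07 (SD, n = 2), a log2 difference of 2.81 with a standard error of 0.29, or 7.02-fold. The smallest ratio between a library of one group and a library of the other was 5.57 and the largest 9.28. Within a group the ratio was 1.59 for controls and 1.05 for eIF1A siRNA. The exact 95% Poisson intervals, which cover counting error only, were 19.1 to 41.0 and 34.3 to 59.0 in controls and 237 to 295 and 228 to 280 after eIF1A siRNA. By size of rise Ccnd1 was at rank 9 of the 4605 tested genes. An exon of LTO1, read from the opposite strand, overlaps the last 1000 exonic bases of Ccnd1 by 818 bases. The sources used here do not state whether the counting used strand, so the reads of the 2 genes may not be separated.

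**Figure D1:**
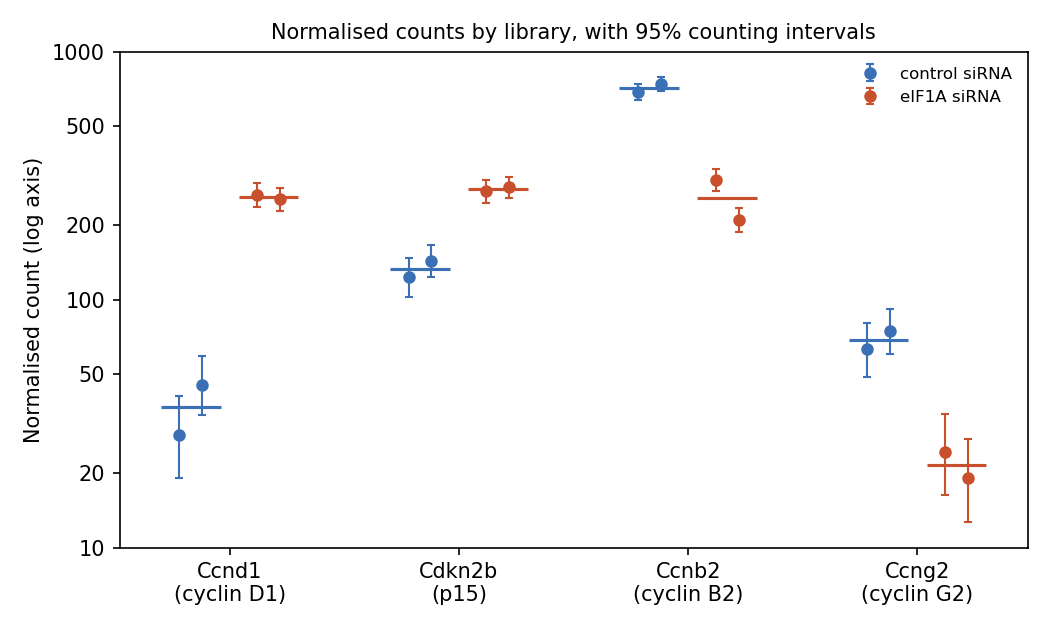
Normalised counts (log axis) of the 4 genes in each of 2 control siRNA (blue) and 2 eIF1A siRNA (orange) libraries, with exact 95% Poisson counting intervals as bars and group means as short lines. Ccnd1 goes from a mean of 37.0 to 259 and Cdkn2b from 133 to 278, while Ccnb2 goes from 713 to 257 and Ccng2 from 68.8 to 21.6, and for each gene the groups lie apart.

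Cdkn2b (ENSMUSG00000073802), which encodes p15, lies on chromosome 4 from 89306299 to 89311039 on the minus strand, with 2 exons in a transcript of 1390 bases. Its normalised counts were 123 and 144 in controls, from 125 and 177 reads, and 273 and 284 after eIF1A siRNA, from 338 and 418 reads. Each eIF1A siRNA library stood at about the same height, and neither overlapped a control. The means were 133 ± 14.6 and 278 ± 7.84 (SD, n = 2), a log2 difference of 1.06 (standard error 0.24), or 2.09-fold. Ratios between the groups ran from 1.90 to 2.31, against 1.17 between the controls and 1.04 between the eIF1A siRNA libraries. By size of rise p15 was at rank 506, far below cyclin D1. So the mRNA of a CDK4 activator and the mRNA of a CDK4 inhibitor were both higher in the same libraries. The ratio of Ccnd1 reads to Cdkn2b reads within a library, which no scaling of libraries can change, was 0.232 and 0.316 in controls and 0.970 and 0.892 after eIF1A siRNA.

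Ccnb2 (ENSMUSG00000032218), for cyclin B2, lies on chromosome 9 from 70407692 to 70421547 on the minus strand, with 9 exons in a transcript of 1531 bases. It had 686 and 739 normalised counts in controls, from 697 and 911 reads, and 304 and 210 after eIF1A siRNA, from 377 and 309 reads. The eIF1A siRNA libraries were both lower than either control but unequal to each other. The means were 713 ± 37.7 and 257 ± 66.8 (SD, n = 2), a log2 difference of −1.49 (standard error 0.23), or 2.81-fold lower, at rank 273 by size of fall. Between the groups the ratio of control to eIF1A siRNA ran from 2.25 to 3.52. The counting intervals of the eIF1A siRNA libraries, 274 to 337 and 187 to 235, lay apart from each other, while those of the controls, 636 to 739 and 692 to 789, overlapped. The intervals take reads as independent molecules. An annotated pseudogene, Ccnb2-ps, may share reads with Ccnb2. In bulk RNA, fewer cells in mitosis and less Ccnb2 mRNA in each cell cannot be told apart.

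Ccng2 (ENSMUSG00000029385), for cyclin G2, lies on chromosome 5 from 93267257 to 93276231 on the plus strand, with 8 exons in a transcript of 2810 bases. Its normalised counts were 63.0 and 74.7 in controls, from 64 and 92 reads, and 24.2 and 19.0 after eIF1A siRNA, from 30 and 28 reads. This is the gene of the 4 with the fewest reads after eIF1A siRNA, and its counting intervals there, 16.3 to 34.6 and 12.6 to 27.5, stayed below those of the controls, 48.5 to 80.4 and 60.2 to 91.6. The means were 68.8 ± 8.26 and 21.6 ± 3.68 (SD, n = 2), a log2 difference of −1.63 (standard error 0.36), or 3.10-fold lower, at rank 218 by size of fall. The ratio of Ccng2 to Ccnb2 reads was 0.0918 and 0.101 in controls and 0.0796 and 0.0906 after eIF1A siRNA, so both cyclins kept nearly the same proportion in all 4 libraries. Annotated exons of other genes did not overlap the last 1000 exonic bases of Ccng2, Ccnb2 or Cdkn2b.

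Since eIF1A acts at the start codon, the start sites of the 4 mRNAs are shown here, read from the principal GENCODE M21 transcripts (mm10). Each stretch runs from 9 bases before the A of the start codon to the base after the codon, with the base at −3, the start codon and the base at +4 in capitals.
Ccnd1: ggccgcGccATGG
Ccnb2: gcggccCtcATGG
Ccng2: gccgacAcgATGA
Cdkn2b: gacaagGgcATGT
Ccnd1 holds both features of a strong start context, a purine at −3 and G at +4, as do 48.1% of 4533 tested genes. Ccng2 and Cdkn2b have the purine only and Ccnb2 has the G only. A purine at −3 is found in 88.3% of those genes and a G at +4 in 54.2%. Ccng2, which was lower, and Cdkn2b, which was higher, thus have the same pattern at these positions. A link between the positions and the direction of change was not tested. The 5′ UTRs are 176 bases long in Ccnd1, 242 in Cdkn2b, 107 in Ccnb2 and 541 in Ccng2, against a median of 173 over tested genes. That of Ccng2 is longer than in 93.9% of them and has 3 upstream ATG triplets, whereas the other 3 mRNAs have 0. Length and triplets are those of the GENCODE transcript. The RefSeq start of Ccng2, used for its promoter below, lies downstream of the GENCODE gene start, and the 5′ UTR from it was not measured. GC content of the 5′ UTR was 68.2%, 69.0%, 74.8% and 65.8% in the same order, with a median of 65.9%. In the 3′ UTR, which is 2679 bases long in Ccnd1, the pentamer ATTTA of AU-rich elements occurs 5 times in Ccnd1, 4 times in Cdkn2b and 6 times in Ccng2, against a median of 1. It occurs 0 times in Ccnb2, whose 3′ UTR has 230 bases. These libraries measured mRNA levels and not translation.

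In the main fit, other D, E and B cyclins were lower where cyclin D1 was higher. Apart from Ccnd1 and Ccnb2, 4 cyclins of G1, S phase and mitosis were tested, with a median log2 difference of −0.70. Of these 3 were called lower (75%, against 21.6% of all tested genes) and 0 higher (against 15.9%). At an unadjusted p under 0.05 and in edgeR and DESeq2, 0 were higher too, and edgeR called 2 lower and DESeq2 called 1. Ccnd3, for the D-type cyclin D3, had 3329 ± 27.2 normalised counts in controls and 2181 ± 65.7 after eIF1A siRNA (1.53-fold lower, limma adjusted p = 0.0311). Ccne1, for cyclin E1, which acts with CDK2 at the start of S phase, went from 144 ± 5.63 to 82.8 ± 8.51 (1.73-fold lower, adjusted p = 0.0240). Ccnb1, for cyclin B1, was 104 ± 14.2 and 57.6 ± 4.98 (1.79-fold lower, adjusted p = 0.0289). These 3 calls are weak. All 3 were lost at equal library totals (limma adjusted p 0.221 to 0.338) and in limma without its mean-variance trend (0.0526 to 0.0942). That of Ccnd3 was lost when any 1 library was left out (adjusted p 0.0713 to 0.135), that of Ccne1 without control replicate 2 (0.0600) and without eIF1A siRNA replicates 1 (0.0582) and 2 (0.169), and that of Ccnb1 without control replicate 1 (0.134) and without eIF1A siRNA replicates 1 (0.154) and 2 (0.0763). Ccna2, for cyclin A2, had 201 and 224 in controls and 144 and 303 after eIF1A siRNA, so its eIF1A siRNA libraries lay on both sides of the controls (adjusted p = 0.970). Ccne2 was under the filter on low values.

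Within libraries, Ccnd1 reads were higher relative to those of Ccnd3, Cdk4 and Ccne1 after eIF1A siRNA. Ccnd1 reads per Ccnd3 read were 0.00852 and 0.0137 in controls and 0.119 and 0.119 after eIF1A siRNA. Per read of Cdk4, for the kinase that cyclin D1 activates, they were 0.00682 and 0.00940 in controls and 0.0654 and 0.0882 after eIF1A siRNA. Per read of Ccne1 they were 0.204 and 0.308 against 2.98 and 3.30. These ratios describe how the genes moved against each other and are no comparison of their molecule numbers. For cyclin B2 the ratio to cyclin B1 was 6.01 and 7.85 in controls and 5.63 and 3.43 after eIF1A siRNA. The ratio of Ccnb2 to Ccna2 was 3.42 and 3.30 in controls and 2.11 and 0.693 after eIF1A siRNA, so cyclin B2 lost most against cyclin A2 in eIF1A siRNA replicate 2, the library in which Ccna2 was highest.

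**Figure D2:**
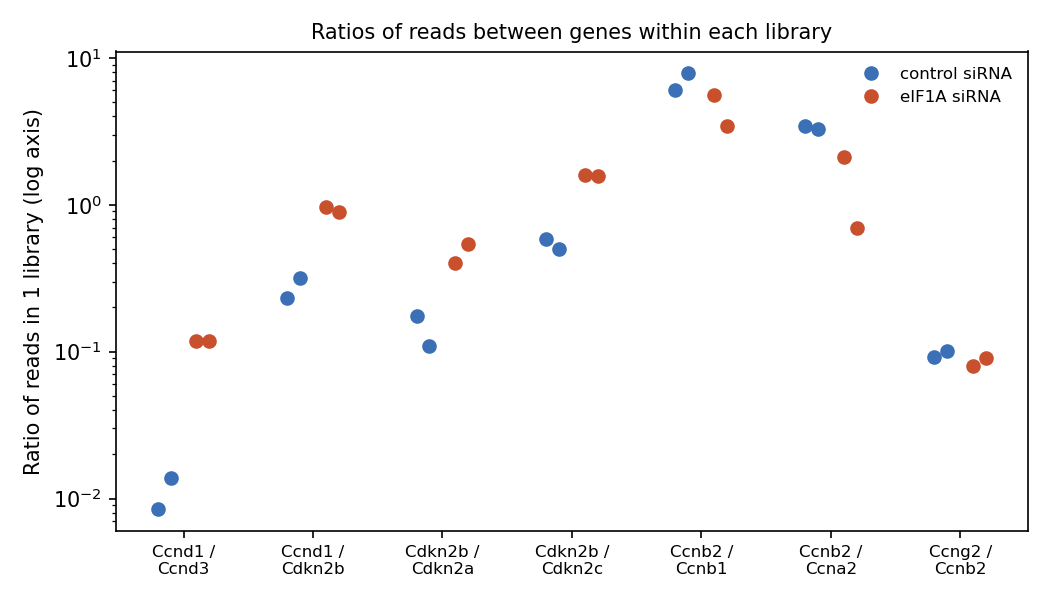
Ratio of the reads of 1 gene to the reads of another in the same library (log axis), with points for 2 control siRNA (blue) and 2 eIF1A siRNA (orange) libraries. Ccnd1 per Ccnd3 goes from 0.00852 and 0.0137 to 0.119 and 0.119, while Ccng2 per Ccnb2 stays between 0.0796 and 0.101.

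Of the other cyclins and cyclin-like genes 4 were tested besides Ccng2, with a median of −0.01. Of these 2 were higher (50%, against 15.9% of all tested genes) and 2 lower (50%, against 21.6%). Ccnf encodes cyclin F, the substrate receptor of a ubiquitin ligase in G2. It had 469 ± 49.9 normalised counts in controls and 202 ± 19.8 after eIF1A siRNA, a 2.32-fold fall (limma adjusted p = 3.2e-04) that kept its call under all 15 alternative settings (other pseudocounts, filters, scalings or tests, a replicate block, or 1 library left out). Ccnl1 and Ccnl2, for the cyclins L that act with CDK11 in splicing, were 1.97-fold and 1.66-fold higher (adjusted p = 0.0386 and 0.0420). Both lost the call without control replicate 1 (0.104 and 0.343) and without eIF1A siRNA replicates 1 (0.0618 and 0.0811) and 2 (0.326 and 0.191). Ccndbp1, for a cyclin D binding protein, was 1.67-fold lower (0.0347). Its call was lost in 8 of 15 settings, among them DESeq2 (adjusted p = 0.0876) and limma at equal totals (0.280). Its log2 difference of −0.74 was −0.65 without control replicate 1 and −0.91 and −0.58 without eIF1A siRNA replicates 1 and 2. Ccnc was under the filter, and Ccng1, the nearest relative of Ccng2, was not analysed here.

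None of the partner kinases of these cyclins passed the test. Of 6 cyclin-dependent kinases tested, 0 were higher and 0 lower in limma, edgeR and DESeq2, and 1 was higher at an unadjusted p under 0.05. Their median was 0.38, and it was 0.61 and 0.09 without control replicates 1 and 2 and 0.17 without eIF1A siRNA replicate 2. Cdk4 had 4511 ± 458 normalised counts in controls and 3460 ± 829 after eIF1A siRNA (adjusted p = 0.200). Cdk2, which cyclin E activates, had 173 and 139 against 212 and 183 (adjusted p = 0.290). Cdk11b, the partner of the cyclins L, had 70.9 and 64.1 against 84.0 and 133 (0.0990). Cdk9, Cdk17 and Cdk19 each stayed under 17 normalised counts in every library and had adjusted p-values of 0.129, 0.651 and 0.159. When libraries were set to equal totals Cdk2 and Cdk11b were called higher (adjusted p = 0.0273 and 0.00906), and Cdk9 was called higher without the mean-variance trend (0.0203). Cdk1 and Cdk6 were not analysed here.

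Among the CDK inhibitors, Cdkn2b stood on the opposite side from its INK4 relatives Cdkn2a and Cdkn2d. Of 4 CDK inhibitors tested besides Cdkn2b, 2 were lower (50%, against 21.6% of all tested genes) and 0 higher. Their median was −0.58, or −0.92 and −0.25 without control replicates 1 and 2. In edgeR and in DESeq2 1 was lower and 0 higher, and in limma without its mean-variance trend 0 were lower. At an unadjusted p under 0.05, 0 were higher. Cdkn2a, which encodes p16 and ARF and lies 11645 bases from Cdkn2b on the same strand, had 703 and 1313 normalised counts in controls and 676 and 528 after eIF1A siRNA. It was 1.61-fold lower (limma adjusted p = 0.0436), but control replicate 1 stood close to eIF1A siRNA replicate 1. The call was lost in 9 of 15 settings, among them edgeR (adjusted p = 0.0538), DESeq2 (0.0720) and limma at equal totals (0.242). The log2 difference of −0.68 was −0.23 without control replicate 2 and −0.51 without eIF1A siRNA replicate 2. Cdkn2d, for the INK4 protein p19, had 355 ± 40.4 and 183 ± 72.8 (2.02-fold lower, adjusted p = 0.00535), a call lost without eIF1A siRNA replicate 2 (0.166). Cdkn2c, for p18, had 211 and 287 against 172 and 180 (adjusted p = 0.127), and was called lower without control replicate 1 (0.0397). Cdkn1b, for p27, had 2.95 and 9.74 against 12.1 and 14.9 (adjusted p = 0.183), and was called higher without control replicate 2 (0.0332). Cdkn2b reads per Cdkn2a read were 0.175 and 0.109 in controls and 0.404 and 0.538 after eIF1A siRNA, and per Cdkn2c read 0.584 and 0.5 against 1.59 and 1.58. On the other side of Cdkn2a, 93389 bases away, Mtap had a log2 difference of 0.70 (adjusted p = 0.0932).

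**Figure D3:**
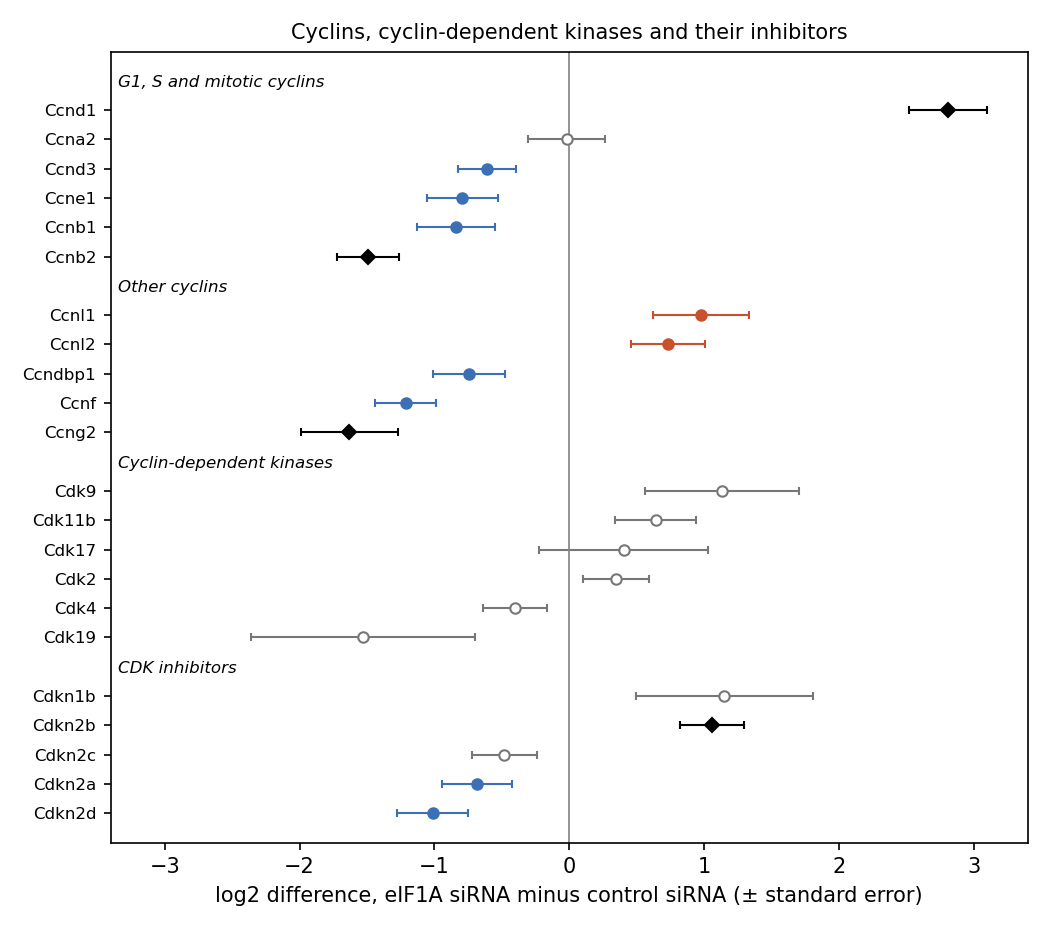
Log2 difference, eIF1A siRNA minus control siRNA, with its standard error, for each tested cyclin, cyclin-dependent kinase and kinase inhibitor. Black diamonds are Ccnd1, Ccnb2, Ccng2 and Cdkn2b (no test), filled circles passed the test (orange higher, blue lower) and open circles did not. Ccnd1 at 2.81 stands far to the right of the other D, E, A and B cyclins, which lie at −0.02 or below.

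The RB, E2F, DREAM and MuvB proteins repress or activate cell cycle genes. Of 10 tested genes for them 0 were lower, against 21.6% of all tested genes. In edgeR and DESeq2 0 were lower too, and 1 was at an unadjusted p under 0.05. Called higher was 1 of the 10 (10%, against 15.9% of all tested genes). The one was E2f4, a repressor-type E2F, at 464 ± 63.7 in controls and 885 ± 19.0 after eIF1A siRNA (1.92-fold, limma adjusted p = 0.00182, kept under all 15 settings). Of 8 enzymes that switch CDKs on or off, 0 were lower, also in edgeR, in DESeq2 and at an unadjusted p under 0.05. Called higher was 1 of the 8 (12.5%, against 15.9% of all tested genes). This was Cdc25a, a phosphatase that activates CDK2, at 69.9 ± 1.33 and 133 ± 8.28 (1.89-fold, adjusted p = 0.0114). Its call was lost without eIF1A siRNA replicates 1 (0.0507) and 2 (0.103). The medians of these lists, 0.10 and 0.08, were −0.06 and −0.03 without control replicate 2. Of 36 tested G1/S genes under E2F, 2 were higher (5.56%, against 15.9% of all tested genes) and 11 lower (30.6%, against 21.6%), with a median of −0.33. The helicase subunits Mcm6 and Mcm5 were 2.14-fold and 2.01-fold lower (adjusted p = 9.0e-04 and 0.00114) and the ligase Lig1 1.91-fold lower (0.00153), each kept under all 15 settings. Rfc4, a clamp loader subunit, was 2.97-fold higher (0.00171, and 0.0540 without eIF1A siRNA replicate 1). At equal library totals the median of this list was 0.03, against 0.34 for all genes, with 5 higher and 7 lower. The larger share of lower genes was not kept in every setting. With quantile normalisation 6 of the 36 were lower (16.7%), against 807 of all 4605 genes. In limma without its mean-variance trend 5 of the 36 were lower (13.9%), against 655 of all 4605. The number higher was 1 without control replicate 1 or eIF1A siRNA replicate 2 and 0 without eIF1A siRNA replicate 1.

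Mitotic genes known to be expressed with cyclin B2 were lower in part. Of 45 tested, 17 were lower and 0 higher, and 28 missed the threshold. Their median log2 difference was −0.43. DESeq2 called 15 lower and edgeR 17, and neither, nor an unadjusted p under 0.05, gave a higher one. The share lower, 17 of 45, stands against 21.6% of all tested genes. Ncaph and Ncapd2, condensin subunits that compact mitotic chromosomes, were each 2.63-fold lower (limma adjusted p = 8.8e-05 and 2.6e-04). Kif2c, a kinesin that corrects attachments to the spindle, was 2.04-fold lower (7.6e-04). These and Ccnf kept their calls under all 15 settings. Members lower numbered 10 without eIF1A siRNA replicate 2, and 1 was higher when either control replicate was left out. At equal library totals 9 were lower and the median was −0.08, against 0.34 for all genes.

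**Figure D4:**
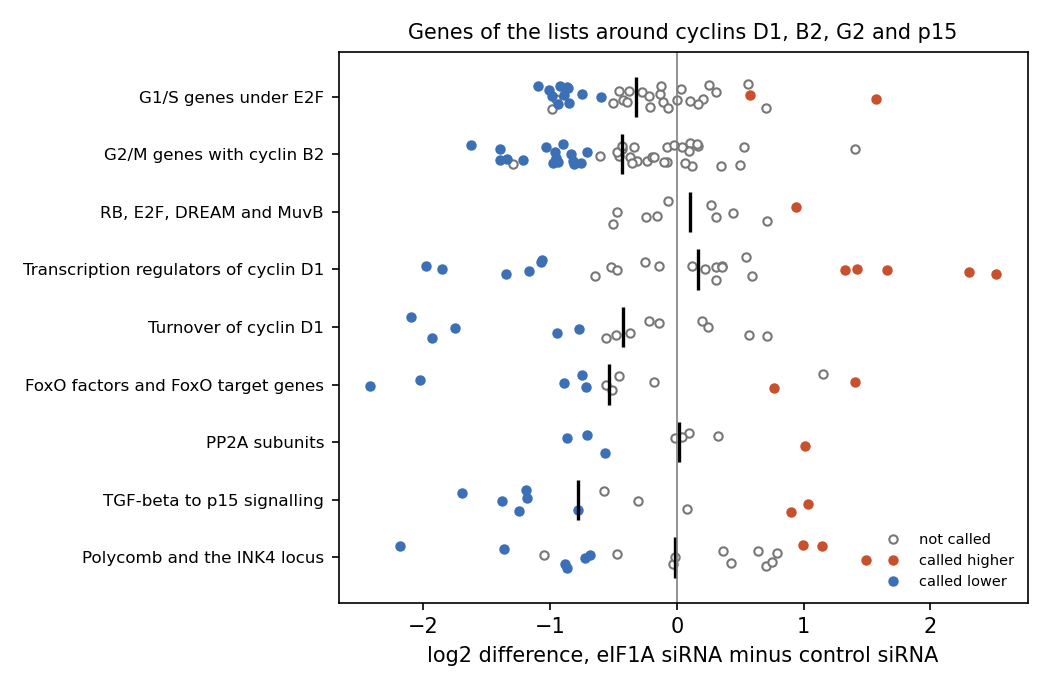
Log2 difference, eIF1A siRNA minus control siRNA, of every tested gene in 9 gene lists, with Ccng2 left out of the FoxO list. Orange points were called higher, blue points lower and open points neither, and a black bar marks each median, at −0.43 for the G2/M list and −0.33 for the G1/S list (−0.08 and 0.03 at equal library totals).

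Promoters of mitotic genes often hold a cell cycle genes homology region (CHR, TTTGAA) together with CCAAT boxes (CCAAT), which DREAM and NF-Y bind. RefSeq promoters (GRCm38.p6, 250 bases before to 50 after the start) were at hand for 3 of the 4 genes: Ccnb2, Cdkn2b and Ccng2. In the stretch of Ccnb2 before the start, chr9:70421555-70421804 on the minus strand, capitals mark a CHR at −167, CCAAT boxes at −87, −54 and −21 and a hypoxia motif (ACGTGC) at −80.
Ccnb2: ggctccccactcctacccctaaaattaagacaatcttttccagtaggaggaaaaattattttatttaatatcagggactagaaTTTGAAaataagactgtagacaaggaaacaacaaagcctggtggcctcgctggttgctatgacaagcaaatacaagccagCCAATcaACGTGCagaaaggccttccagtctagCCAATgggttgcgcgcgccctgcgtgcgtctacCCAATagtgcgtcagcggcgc
A CHR also begins at +5, in capitals in the 30 bases around the start.
Ccnb2 start: gtgcgtcagcggcgcggtaTTTGAAtcgcg
The 3 CCAAT boxes are evenly spaced, and the last lies just before the start. With both strands read, a CHR occurs in 17.9% and a CCAAT box in 37.4% of 32851 promoters of the same length. Of 51 G2/M genes with a promoter entry, 34 hold a CHR (66.7%, against 20.2% of all genes) and 38 a CCAAT box (74.5%, against 41.1%). Of the 26 tested G2/M genes with a CHR, 12 were called lower, and of the 11 without, 2 were. Over all 498 tested genes with a CHR, 20.1% were lower, close to the 21.6% of tested genes with a promoter entry.

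The promoter of Cdkn2b before its start, chr4:89311033-89311282 on the minus strand, is shown for the cyclic AMP response element (CRE, TGACGT) that it holds on both strands, first bases at −46 and −44, overlapping each other. Capitals mark it and a CHR on the reverse strand at −161.
Cdkn2b: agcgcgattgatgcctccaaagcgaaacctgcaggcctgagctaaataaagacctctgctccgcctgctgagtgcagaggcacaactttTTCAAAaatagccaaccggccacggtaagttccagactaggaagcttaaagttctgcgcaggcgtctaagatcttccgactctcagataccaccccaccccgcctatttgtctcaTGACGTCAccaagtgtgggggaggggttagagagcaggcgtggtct
A CRE occurs in 7.51% of all promoters. Of 551 tested genes with one, 19.1% were higher and 14.0% lower, against 15.7% and 21.6% of all 3625 tested genes with a promoter entry. The SMAD motifs GTCTAGAC and CAGACA and the FoxO motif GTAAACA were searched too, and these letters are in none of the 3 windows. In Ccng2 the one match was a GC box (GGGCGG, 35.7% of promoters) on the reverse strand at −41. Ccnb2 and Cdkn2b hold the same box at +20 and +5. The Ccng2 stretch before its RefSeq start, chr5:93267323-93267572, lies inside the GENCODE gene, which begins at 93267257. Bases before the GENCODE start of Ccng2 were thus not searched. Neither the E2F letters TTTGGCG, nor the variant letters TTTCGCG, nor the variant letters TTCCCGC had a match in these windows. The letters of AP-1 (TGANTCA), of the TCF motif (CTTTGAT), of the joint ATF4 and C/EBP motif (TGATGNAA), of the E-box (CACGTG) and of the box that TBP binds (TATAAA) had no match either.

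**Figure D5:**
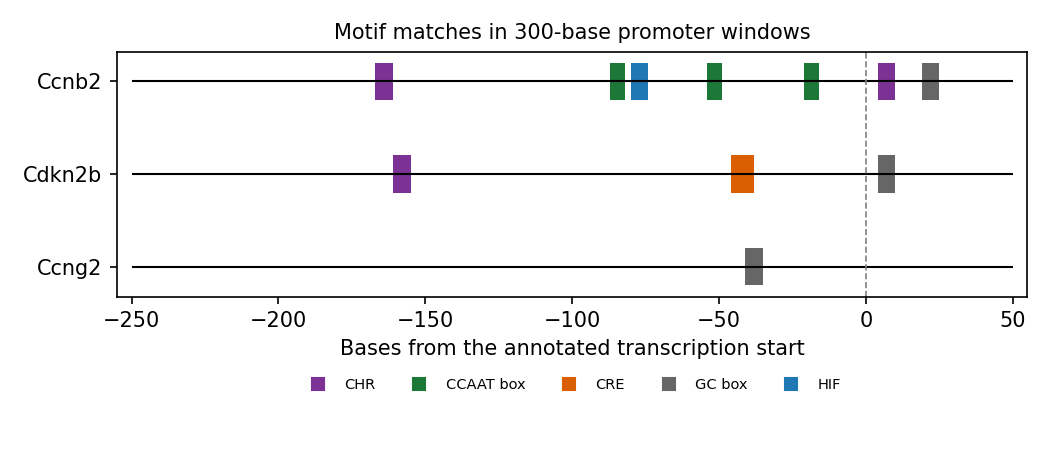
Matches to motif letters on either strand in the promoter windows of Ccnb2, Cdkn2b and Ccng2, drawn by distance in bases from the annotated start (dashed line). Ccnb2 holds 2 CHR matches and 3 CCAAT boxes, Cdkn2b a CRE just before its start, and Ccng2 a GC box alone. The Ccng2 window, set by its RefSeq start, lies inside the GENCODE gene.

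Of 24 tested transcription regulators of Ccnd1, 5 were higher (20.8%) and 6 lower (25%), near the shares of 15.9% and 21.6% over all tested genes, and the median was 0.17. It was −0.21 without control replicate 2 and −0.11 without eIF1A siRNA replicate 2, where 3 were higher. Myc, a growth factor responsive transcription factor, had 29.8 ± 0.356 normalised counts in controls and 189 ± 99.6 after eIF1A siRNA (5.74-fold, limma adjusted p = 1.4e-05). Jun, a subunit of AP-1, went from 28.8 ± 1.75 to 147 ± 21.3 (4.93-fold, 1.05e-05). Tcf7l1, a mostly repressive TCF of the Wnt pathway, was 3.95-fold lower (2.2e-06) and Tead2, a DNA-binding partner of YAP, 2.54-fold lower (7.0e-05). All 4 kept their calls under the 15 settings. Among 14 tested genes for turnover of cyclin D1 protein, 5 were lower (35.7%, against 21.6% of all tested genes) and 0 higher. In edgeR and DESeq2 0 of them were higher too, and 1 was at an unadjusted p under 0.05. Their median was −0.42, or −0.16 without control replicate 1 and −0.07 at equal totals. Cryab and Fbxo31, parts of ubiquitin ligases reported for cyclin D1, were 4.29-fold and 3.83-fold lower (9.6e-06 and 0.00105), and Dyrk1b, a kinase that phosphorylates cyclin D1, was 3.36-fold lower (0.00102). The fall of Fbxo31 was 6.46-fold without eIF1A siRNA replicate 1 and 2.27-fold without eIF1A siRNA replicate 2. Cul7, a cullin, was 1.71-fold lower (0.00716, and 0.0794 without eIF1A siRNA replicate 2). Without that library, and also at equal totals, 3 of the 14 were lower.

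For cyclin G2 the lists were FoxO factors with their targets, and PP2A. Besides Ccng2, 12 genes of the FoxO list were tested, with 2 higher (16.7%, against 15.9% of all tested genes) and 5 lower (41.7%, against 21.6%). Their median was −0.54. Pik3ip1, an inhibitor of PI3-kinase, had 142 ± 24.7 and 25.6 ± 2.60 (5.36-fold lower, limma adjusted p = 8.2e-06). Bnip3, a mitophagy receptor that hypoxia also induces, was 4.09-fold lower (6.8e-05), and both calls were kept under the 15 settings. Cited2, a transcription cofactor, was 1.70-fold higher (0.0138), a call lost without control replicate 2 (0.0629) and without eIF1A siRNA replicate 2 (0.185). Of these 12, the number lower was 3 without control replicate 1 or eIF1A siRNA replicate 2. It was 2 without eIF1A siRNA replicate 1, at equal totals or in DESeq2. Members higher numbered 1 without control replicate 2 or eIF1A siRNA replicate 1 and 0 without eIF1A siRNA replicate 2. Of 8 PP2A subunits 1 was higher (12.5%, against 15.9% of all tested genes) and 3 lower (37.5%, against 21.6%). At equal totals, with quantile normalisation or in limma without its mean-variance trend, 0 were lower. Their median was 0.01, and −0.13 without control replicate 1. The regulatory subunit Ppp2r2d was 2.01-fold higher (9.5e-04, kept under the 15 settings), and the scaffold subunit Ppp2r1a was 1.82-fold lower (0.00591). The call of Ppp2r1a was lost in 4 of 15 settings, among them limma at equal totals (adjusted p = 0.0504) and with quantile normalisation (0.122). Its log2 difference of −0.86 was −0.56 without control replicate 1. The activator Ppp2r4 was 1.63-fold lower (0.0133), a call lost without control replicate 1 (0.0811) and without eIF1A siRNA replicate 2 (0.0663). Ppp2r5d, a regulatory subunit, was 1.48-fold lower (0.0459). Its call was lost in 9 of 15 settings, among them edgeR (adjusted p = 0.0872), DESeq2 (0.0937) and limma at equal totals (0.432). Its log2 difference of −0.57 was −0.49 without control replicate 2 and −0.36 without eIF1A siRNA replicate 1. Only 1 PP2A subunit was lower without control replicate 1.

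In the list of TGF-beta genes drawn up for p15, more were called lower than higher, whereas Cdkn2b itself was higher. Of 11 tested, 6 were lower and 2 higher, with a median of −0.78 (−0.50 without control replicate 1 and −1.05 without control replicate 2). Tgfb3, a ligand, had 284 ± 7.76 in controls and 87.1 ± 1.22 after eIF1A siRNA (3.23-fold lower, limma adjusted p = 2.5e-05). Ltbp3, which holds latent TGF-beta in the matrix, was 2.60-fold lower (1.0e-04), the target Id1 2.37-fold lower (1.7e-04) and the inhibitory Smad6 2.29-fold lower (0.00106). These 4 calls were kept under the 15 settings. Tgfb1 and Ltbp4 were called lower too, at log2 differences of −1.19 and −0.78, which were −0.59 and −0.50 without control replicate 1. Both calls were lost in limma without its mean-variance trend (adjusted p 0.0963 and 0.0876), where 4 of the 11 were lower. The call of Ltbp4 was also lost at equal totals (limma adjusted p 0.206). The higher ones were Smad7 (2.05-fold, 0.0147) and Smad5 (1.87-fold, 0.0351). Smad3, Ski and Tgfbr2 were not called. Smad2 was under the filter, and Tgfbr1, Smad4 and Zbtb17 were not analysed here. Whether TGF-beta signalling to Cdkn2b changed was not tested. Members higher numbered 1 without eIF1A siRNA replicate 1 and 0 without control replicate 2 or eIF1A siRNA replicate 2. The Polycomb list also holds the neighbours Cdkn2a and Mtap. Of its 19 tested genes 3 were higher (15.8%, against 15.9% of all tested genes) and 6 lower (31.6%, against 21.6%). The median was −0.02 (0.30 without control replicate 1, −0.23 without control replicate 2). Kdm6b, a demethylase that removes the Polycomb mark on histone H3, was 4.54-fold lower (1.6e-05). Ring1, a ubiquitin ligase of the first Polycomb complex, was 2.57-fold lower (1.5e-04), and Pcgf5, a subunit of a variant of it, was 2.82-fold higher (1.4e-04). These 3 calls were kept under the 15 settings. Cbx6, a Polycomb reader, was 1.84-fold lower (0.00411, and 0.0554 without eIF1A siRNA replicate 1). Without eIF1A siRNA replicate 2, 1 member was higher, and without eIF1A siRNA replicate 1, 3 were lower.

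The genes whose 4 values ran most like those of each member were found by the distance between log2 profiles centred on their own means, over 4 libraries. For Ccnd1 they were Trib3, a pseudokinase of the stress response (distance 0.257), Atf4, the transcription factor that induces it (0.294), and Pno1, a ribosome assembly factor (0.300). Trib3 had 68.9 and 110 normalised counts in controls and 567 and 697 after eIF1A siRNA, so it too was higher in control 2 than in control 1. The genes most like Ccnb2 were Dnpep, an aminopeptidase (0.0966), Fads2, a fatty acid desaturase (0.115), and Zdhhc8, a palmitoyltransferase (0.134). Dnpep had 1589 and 1714 against 735 and 528, and like Ccnb2 it was lowest in eIF1A siRNA replicate 2. None of the 3 is on the G2/M list. For Ccng2 they were Pald1 (0.125), the lysosomal mannosidase Manba (0.149) and the mitochondrial kinase Pink1 (0.159), and for Cdkn2b they were Zfp664 (0.0858), Ttc13 (0.0900) and Yars, a tRNA synthetase (0.0925). Likeness over 4 libraries in 2 groups is given as a description.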

How the data were processed

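Polyadenylated RNA in cell lysates was captured for 4 bulk MARS-seq libraries, which read 3′ ends, per the labels' protocols. Tools listed in the submitters' processing notes are DESeq2, HTSeq, STAR, cutadapt 1.8.3 and bcl2fastq 2.17.1.14, with the build mm10. The deposited values are a signal, counts normalised by the authors, who call them so in the file's name; 100% were whole multiples of 1 step per library (within 0.01 read), so reads were recovered. The sources used here do not state the use of strand or molecular identifiers. The main test was limma 3.58.1 (R 4.3.3) on log2(value + 1), with its mean-variance trend, over 4605 genes (273 with a mean under 5 were left out), Benjamini-Hochberg, threshold 0.05; fold changes are on that scale. edgeR 4.0.16 and DESeq2 1.42.0 ran on recovered reads. The fit was checked on simulated counts with the same spread setting for all genes and changes larger than most of those named here. That check does not cover smaller differences. The members and the gene and motif lists were chosen with earlier results of these data known. Named were all 4 members, from each list up to 4 called genes of smallest p, and 3 genes nearest in profile to each member. All tested cyclins, kinases, inhibitors and TGF-beta genes were named too. Clone-type symbols (Rik, Gm, BC) were passed over. Positions, start sites and UTRs came from GENCODE M21 (mm10) and promoters from RefSeq (GRCm38.p6). A planned comparison of protein sequences was not run.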

Additional observations from a re-analysis of the deposited data

How the results depend on the processing

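Each of the 4 genes kept its direction under all 11 alternatives that can change its value. The log2 difference ran from 2.48 to 3.16 for Ccnd1, −1.76 to −1.14 for Ccnb2, −1.83 to −1.29 for Ccng2 and 0.95 to 1.41 for Cdkn2b. With library totals set equal the differences were 3.16, −1.14, −1.29 and 1.41, each raised by that scaling's shift of all genes, and quantile normalisation gave 1.19 for Cdkn2b. Over the table, 733 genes were higher and 996 lower, against 1299 and 603 at equal totals. limma without its trend called 655 lower. Leaving out 1 library gave 438 to 758 genes higher and 715 to 987 lower. The replicate numbers are not said to pair the samples, and same-numbered libraries did not deviate together (correlation −0.129). With a replicate block 641 genes were higher and 918 lower, and with the crossed replicate block, added after that correlation was seen, 891 and 1154. Of 91 called list genes that are not among the 4, 36 kept the call under all 15 alternatives, 55 lost it in at least 1 and 0 reversed. With 2 libraries per group and down to 28 reads for Ccng2, small differences are not resolved.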
